A study of Homo sapiens with 20 samples.

Results

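Of 20 established human biliary tract cancer cell lines, the 5 with the highest and the 10 with the lowest transcript levels of MHC class II genes were compared. The lines were chosen by measured values: log2(CPM + 0.5), where CPM is the count scaled to 1 M counts (M for mega) of that line, was averaged over HLA-DRA and CD74, and the lines were ranked by that mean. The 5 highest, called class II high, were SNU-869, SNU-308, HuH28, OCUG-1 and HuCCT1. The 10 lowest, called class II low, were OZ, TKKK, SNU-1196, TGBC14TKB, Sk-ChA-1, TFK-1, G415, SNU-1079, Mz-ChA-2 and SNU-245. The 5 lines between them, NOZ, TGBC18TKB, SNU-478, EGI-1 and TGBC2TKB, were left out of the fit.

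Each line gave 1 poly(A) RNA-seq library from cells kept in the same serum-containing medium, so the cell line is the replicate and errors reflect how lines differ. The labels give no genotype, treatment or stimulus. SNU-869 came from an ampullary, SNU-308 from a gallbladder and HuH28 from an intrahepatic primary tumour, while OCUG-1 (gallbladder) and HuCCT1 (intrahepatic) are labelled as coming from ascites. The low lines were 6 of primary and 4 of metastatic origin. Total counts ran from 10.47 to 15.41 M over the 20 lines, with medians of 13.12 M in the high and 12.51 M in the low lines. The floor behind a count of 0 was set at 3 counts, equal to 0.195 to 0.287 CPM by line, and covers counting error only.

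MHC class II molecules are pairs of an alpha and a beta chain (HLA-DR, HLA-DP and HLA-DQ) that show peptides from the endosome and lysosome to CD4+ T cells. CD74, the invariant chain, fills and guides the new pairs, HLA-DM exchanges its remnant for peptide, and HLA-DO restrains HLA-DM. The genes are switched on by the coactivator CIITA, which is held at their promoters by RFX, NF-Y and CREB factors on short elements called the X and Y boxes. Dendritic cells, B cells and macrophages express class II constantly, whereas epithelial cells, bile duct cells among them, mostly gain it under interferon gamma.

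The promoter stretches below show where the cores of these boxes occur in front of the chain genes HLA-DRB1, HLA-DQB1 and HLA-DPA1. A stretch is also given for ADGRE1, the gene that passed the test. They are the 250 bases before the RefSeq start in GRCh38.p14, read 5′ to 3′ in the direction of the gene. Capitals mark AGCAAC, the core of the X box, and TGATTGG, the core of the Y box. Both strands were searched, and the motifs share no letters.
HLA-DRB1, chr6:32589849-32590098, minus strand: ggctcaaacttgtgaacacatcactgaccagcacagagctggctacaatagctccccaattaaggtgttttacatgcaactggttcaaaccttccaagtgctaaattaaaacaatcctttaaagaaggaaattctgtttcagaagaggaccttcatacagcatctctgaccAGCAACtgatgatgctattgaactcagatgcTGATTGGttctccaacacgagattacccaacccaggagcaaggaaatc
HLA-DQB1, chr6:32666658-32666907, minus strand: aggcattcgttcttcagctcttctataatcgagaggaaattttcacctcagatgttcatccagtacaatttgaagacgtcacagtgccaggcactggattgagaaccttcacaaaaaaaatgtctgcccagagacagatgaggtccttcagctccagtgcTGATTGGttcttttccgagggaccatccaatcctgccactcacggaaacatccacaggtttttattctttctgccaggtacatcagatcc
HLA-DPA1, chr6:33073650-33073899, minus strand: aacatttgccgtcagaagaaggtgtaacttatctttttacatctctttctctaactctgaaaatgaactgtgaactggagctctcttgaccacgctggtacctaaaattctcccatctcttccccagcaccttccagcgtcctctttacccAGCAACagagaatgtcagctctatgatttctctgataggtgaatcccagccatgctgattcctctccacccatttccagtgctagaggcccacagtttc
ADGRE1, chr19:6887329-6887578, plus strand: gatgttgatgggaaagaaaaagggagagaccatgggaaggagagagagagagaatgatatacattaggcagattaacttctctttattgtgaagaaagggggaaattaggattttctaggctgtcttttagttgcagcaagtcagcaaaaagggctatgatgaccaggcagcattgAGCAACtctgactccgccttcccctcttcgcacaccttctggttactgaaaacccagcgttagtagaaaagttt

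In HLA-DRB1 the X core began 79 bases and the Y core 48 bases before the start, with 25 bases between them. HLA-DQB1 held only the Y core, 90 bases before the start. In HLA-DPA1 the window shown held only the X core, and the other RefSeq start of that gene had neither in front of it. Of 14 class II chain and chaperone genes measured, 13 had a window in the table, 5 of them with the X core and 8 with the Y core. Of the pair that chose the lines, HLA-DRA had no window and the window of CD74 held neither core. Over all 35116 windows of the same length, 10.33% held the X core and 6.62% the Y core. An X core followed by a Y core within 40 bases on the same strand was found in 0.1% of all windows and in front of 3 class II genes, HLA-DRB1, HLA-DRB5 and HLA-DOA. ADGRE1 held an X core 74 bases before its start and no Y core. A match is a run of letters and was not tested as a binding site.

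The values that chose the lines span a wide range. HLA-DRA, the only alpha chain of HLA-DR, was at 264 CPM in SNU-869, 44.7 in SNU-308, 36.8 in HuH28, 11.1 in OCUG-1 and 2.69 in HuCCT1. CD74 was at 1580 CPM in SNU-869, 489 in SNU-308, 149 in HuH28, 151 in OCUG-1 and 520 in HuCCT1. HuCCT1 therefore entered through CD74: its HLA-DRA lay below that of the middle lines NOZ (4.45 CPM) and TGBC2TKB (3.27) and of the low lines OZ (4.63) and TKKK (3.74). In the low lines HLA-DRA ran from 0 to 4.63 CPM with a median of 0.122, and CD74 from 0 to 36.9 CPM with a median of 5.55. The mean of both log2 values fell to 5.35 in HuCCT1, the last line inside the high class, and stood at 4.65 in NOZ, the next line outside it. At the other border TGBC2TKB stood at 3.13 and OZ, the highest low line, at 2.81. The lines thus form a graded series with no empty stretch at either border.

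**Figure D1:**
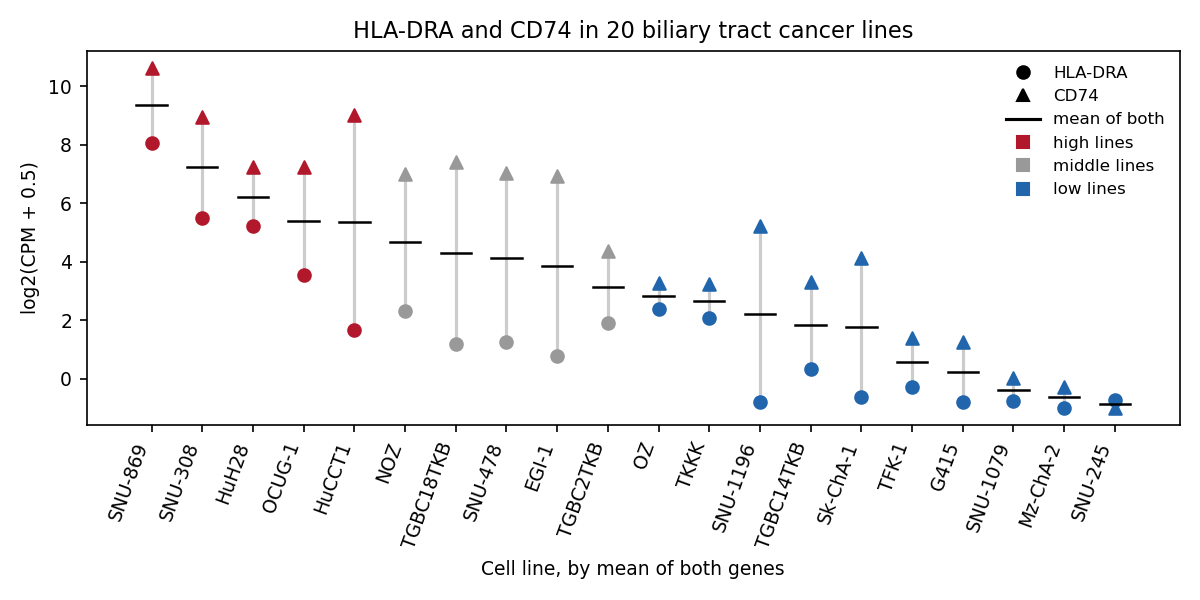
Log2(CPM + 0.5) of HLA-DRA (circles) and CD74 (triangles) in each of the 20 lines, ordered by the mean of both (black bar) and coloured by class, with 1 library per line. HuCCT1 pairs a CD74 level of 520 CPM with an HLA-DRA level of 2.69 CPM, and the means of neighbouring lines lie close at both class borders.

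The other class II chains were mostly present in the high lines and close to 0 in most low lines. These genes share their control with the choosing pair, so their values describe the classes and support nothing further. HLA-DPA1, the alpha chain of HLA-DP, was at 119 CPM in SNU-869, 28.5 in SNU-308, 18.7 in HuH28, 28.4 in OCUG-1 and 3.99 in HuCCT1, and at 0 to 1.09 CPM in the low lines. All 5 high lines lay above all 10 low lines, with means of 39.8 ± 45.5 CPM (SD, n = 5) and 0.258 ± 0.399 CPM (SD, n = 10). The fitted log2 difference, high minus low, was 7.27 (SE 1.17, edgeR adjusted p = 0.075), just short of the threshold of 0.05.

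HLA-DPB1, the beta chain of HLA-DP, was at 37.9, 5.44, 6.60, 4.5 and 0.607 CPM in the high lines in the order above, and its highest low value was 1.22 CPM in TKKK. Only HuCCT1 overlapped the low lines, and the log2 difference was 5.97 (SE 1.26, edgeR adjusted p = 0.327). HLA-DPA1 and HLA-DPB1 overlap each other on the genome, and no source used here gives the strand setting of the counting. Reads of the pair may be shared. The same holds for any class II gene with near-identical copies, such as the HLA-DRB genes and HLA-DQA1 with HLA-DQA2.

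HLA-DRB1, a beta chain of HLA-DR, was at 61.4 CPM in SNU-869, 12.2 in SNU-308, 109 in HuH28, 62.7 in OCUG-1 and 1.13 in HuCCT1. Among the low lines it reached 34.4 CPM in SNU-245 and 13.7 CPM in OZ, and lay at 2.78 CPM or below in the other 8. SNU-245 had 0.0955 CPM of HLA-DRA and 0 of CD74, so this line carried a DR beta transcript with neither its alpha chain nor the invariant chain at any appreciable level. HLA-DQB1, the beta chain of HLA-DQ, was at 110 CPM in SNU-869, 21.8 in SNU-308, 1.05 in HuH28, 7.70 in OCUG-1 and 11.5 in HuCCT1. Its highest low value, 13.6 CPM in TGBC14TKB, exceeded 3 of the 5 high lines. HuH28 thus had the highest HLA-DRB1 and the lowest HLA-DQB1 of the high lines.

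HLA-DQA1 was at 5.12, 0.644, 2.32 and 1.14 CPM in the 4 highest lines, at 0 in HuCCT1, and at 0 in 9 of 10 low lines. HLA-DRB5 was at 15.7 CPM in HuH28 and 2.21 in OCUG-1 but at 0 in SNU-869 and HuCCT1. HLA-DQA2 and HLA-DQB2 did not exceed 1.36 CPM in any high line. HLA-DRB5, HLA-DQA1, HLA-DQA2 and HLA-DQB2 fell below the count filter and were not tested, and HLA-DRB3 and HLA-DRB4 were not analysed here. The set of chains with counts therefore differed from line to line within the high class. The labels give no HLA genotype, so the part of gene content, alleles and read mapping in these values was not tested. HuCCT1 was the high line of lowest value for HLA-DRA, HLA-DRB1, HLA-DPA1 and HLA-DPB1.

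**Figure D2:**
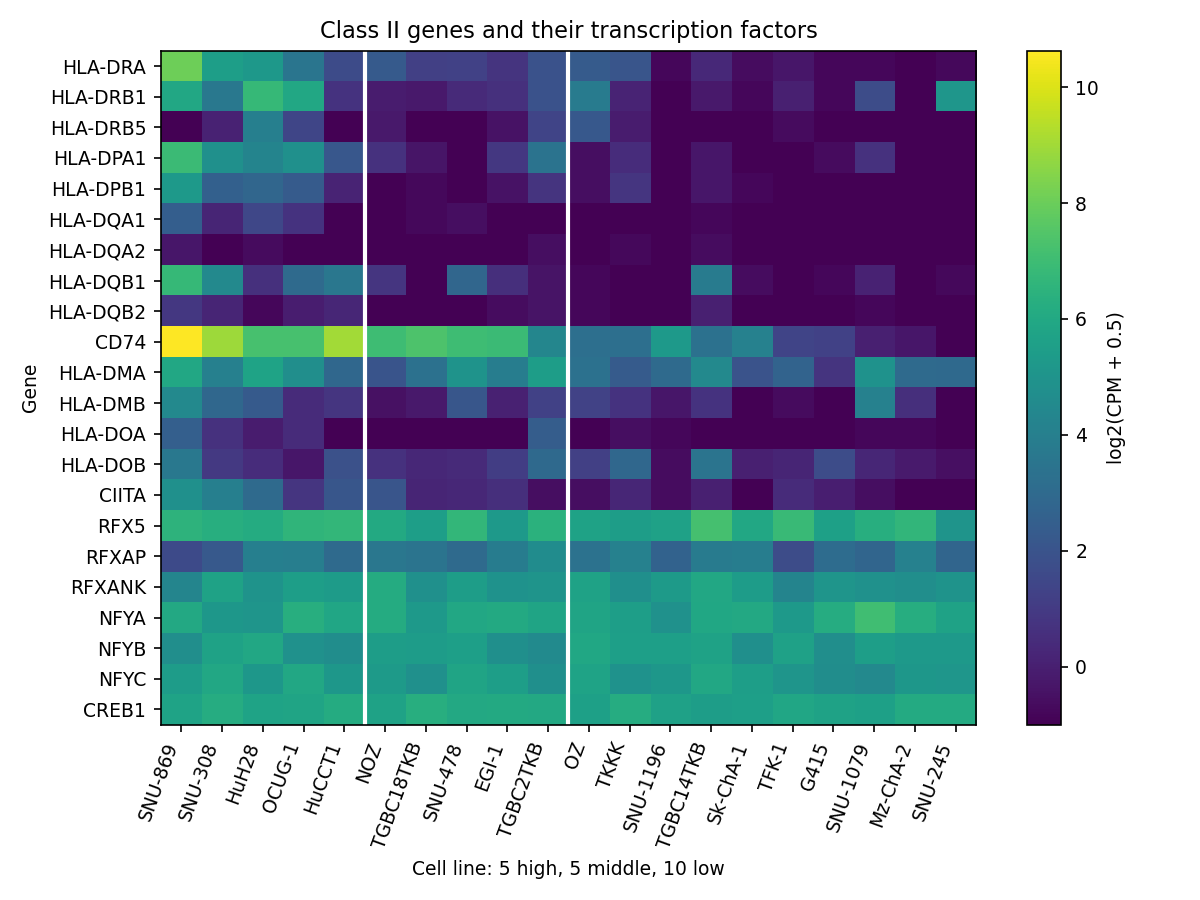
Log2(CPM + 0.5) of the class II chains, the chaperones, CIITA and the other class II transcription factors (rows) in each line (columns, 5 high, 5 middle and 10 low, divided by white lines). The upper rows fade from left to right with single bright cells among the low lines, such as HLA-DRB1 in SNU-245 (34.4 CPM), while the 7 lowest rows vary less between columns.

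The levels of the loading machinery overlapped between the classes, apart from CD74. HLA-DMA was at 6.86 to 63.0 CPM in the high lines (median 26.2) and 1.19 to 29.8 CPM in the low lines (median 7.42), with a log2 difference of 1.87 (SE 0.63, edgeR adjusted p = 0.813). HLA-DMB was at 21.8 CPM in SNU-869 and at 0.838 to 6.80 CPM in the other high lines. The low line SNU-1079 had 29.8 CPM of HLA-DMA and 16.6 CPM of HLA-DMB beside 0.0842 CPM of HLA-DRA, so in that line the exchange factor was transcribed without the DR alpha chain. HLA-DOB overlapped between the classes, with 12.0 CPM in SNU-869, 10.4 CPM in the low line TGBC14TKB and 6.88 CPM in the low line TKKK. HLA-DOA was at 0.421 to 5.20 CPM in 4 high lines and 0 in HuCCT1, against at most 0.174 CPM in the low lines.

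Among the transcription factors, CIITA was the member whose levels separated the classes. CIITA was at 27.9 CPM in SNU-869, 16 in SNU-308, 7.72 in HuH28, 1.22 in OCUG-1 and 3.82 in HuCCT1, and at 0 to 0.843 CPM in the low lines. The classes did not overlap, although OCUG-1 lay close to the highest low line, TFK-1. CIITA overlaps the gene DEXI on the genome, which was at 9.98 to 75.9 CPM in the high and 12.1 to 24.3 CPM in the low lines. Whether reads of CIITA and DEXI were mixed was not tested. In the middle lines CIITA was at 3.65 CPM in NOZ and at 0.172 to 0.961 CPM in the other 4. The log2 difference was 5.16 (SE 0.97, edgeR adjusted p = 0.195), which did not pass. Over all 20 lines the Spearman rho of CIITA with the mean of HLA-DRA and CD74 was 0.861, given as a description since these points share libraries and the genes share control. The same rho was 0.775 for HLA-DPA1, 0.729 for HLA-DPB1, 0.699 for HLA-DQA1, 0.639 for HLA-DQB1 and 0.506 for HLA-DRB1. Among the chaperones it was 0.505 for HLA-DMB, 0.468 for HLA-DMA, 0.395 for HLA-DOA and 0.365 for HLA-DOB. The remaining chains were at 0.566 (HLA-DQB2), 0.44 (HLA-DRB5) and 0.277 (HLA-DQA2), so chains and chaperones overlapped.

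The factors that hold CIITA at the promoters were transcribed at overlapping levels in both classes. RFX5 was at 71.7 to 104 CPM in the high and 31.9 to 148 CPM in the low lines, RFXANK at 18.9 to 50.7 and 18.4 to 61.4 CPM, and RFXAP at 2.56 to 15.9 and 2.72 to 17 CPM. NFYA, NFYB, NFYC and CREB1 were between 21.98 and 133 CPM in each of the 15 lines compared. Each of these 7 factors had counts in every low line. Of the 8 listed transcription factors tested, 0 passed.

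Across all genes other than the choosing pair, 15021 passed the count filter and were tested. At an edgeR adjusted p under 0.05, 1 gene was called higher in the high lines, which is 0.00666% of those tested, and 0 genes were called lower (0%). At an unadjusted p under 0.05 edgeR gave 438 higher and 445 lower genes, together 5.88% of those tested, and DESeq2 called 26 higher and 49 lower after adjustment. The genes called by DESeq2 but not by edgeR included HLA-DPA1, HLA-DPB1, CIITA, MRNIP, CXCL8, GLIPR1, PRRT3, C2orf72, TMEM117, QNG1, CDH17 and PAK4. The common dispersion of 0.853 shows how much single genes varied between lines of the same class. The count of higher genes was 3 without HuH28 (ADGRE1, CXCL6 and MRNIP) and 2 without G415 (ADGRE1 and GLIPR1).

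The gene that rose was ADGRE1, an adhesion G protein-coupled receptor whose mouse counterpart is the macrophage antigen F4/80. ADGRE1 was at 17.5 CPM in SNU-869, 1.57 in SNU-308, 4.0 in HuH28, 15.4 in OCUG-1 and 1.48 in HuCCT1. It was at 0 in 8 of 10 low lines, with 0.0756 CPM in TGBC14TKB and 0.0649 CPM in TFK-1. ADGRE1 thus met the count filter only through the high lines, so its place among the genes tested depended on the class where it is high. The high lines together held 517 counts and the low lines 2, a ratio of pooled CPM of 503 with an exact 95% interval of 139 to 4164 that covers counting error only. The fitted log2 difference was 8.35 (SE 0.92, edgeR adjusted p = 0.00184), a size that depends on the prior count because the low lines are near 0.

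ADGRE1 did not follow the choosing pair through the middle lines. It was at 27.7 CPM in TGBC2TKB, above every high line, at 4.10 in TGBC18TKB and 0.292 in NOZ, and at 0 in SNU-478 and EGI-1. With the 5 high lines set against the 15 others, the log2 difference was 1.97 and the edgeR adjusted p 0.919. By repository, high lines from HSRRB were at 4.0 and 15.4 CPM against 0 in 1 low line. Those from KCLB were at 1.57 and 17.5 CPM against 0 in 3 low lines. From RIKEN it was 1.48 CPM against at most 0.0756 in 3 low lines. All high lines lay above all low lines to begin with. The order within repositories was therefore fixed in advance and is no test of repository. With repository as a covariate the log2 difference was 8.28 and the adjusted p 0.372. With anatomical site as a covariate these were 8.08 and 0.633, and among primary lines alone 7.80 and 0.934.

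Several defining macrophage markers were at 0 in the high lines and also in most low lines. Of 15 measured macrophage and dendritic cell markers, 3 were abundant enough to test and 0 passed. SPI1, the master factor of myeloid cells, CD163, TYROBP, C1QB, CLEC9A and LILRB4 were at 0 in all 5 high lines, and CSF1R did not exceed 2.17 CPM. C1QB, CLEC9A and LILRB4 were at 0 in every low line too. The low maxima were 0.168 CPM for TYROBP (SNU-1079), 0.454 for CD163 (TGBC14TKB) and 4.02 for SPI1 (TFK-1). ITGAM reached 1.65 CPM in the high line HuCCT1 and 4.09 in the low line TKKK. FCER1G reached 0.421 CPM in the high line HuH28 and 2.68 in the low line Mz-ChA-2. CD14, a co-receptor of monocytes that epithelial cells can also make, was at 1.15 to 12.2 CPM in the high and 0.169 to 7.64 CPM in the low lines. ITGAX, the integrin CD11c, was at 4.72 CPM in SNU-869 and 0.286 CPM or below in the other high lines, against 0 to 10.7 CPM in the low lines. The middle line TGBC2TKB, where ADGRE1 was highest, also had the highest ITGAX (33.9 CPM), CD14 (13.5 CPM) and MARCO (5.59 CPM) of the 20 lines, the only LILRB4 (1.72 CPM) and 190 CPM of CD68, with SPI1 at 0.258 CPM and TYROBP at 0. The part of these genes in the ADGRE1 result was not tested. The summed level of this list was 14.7 to 167 CPM in the high and 16.4 to 423 CPM in the low lines, and in the 5 high lines most of it was CD68, a lysosomal protein that other cells also make. PTPRC, the pan-leukocyte antigen CD45, did not exceed 0.281 CPM in the high and 1.39 CPM in the low lines. The B cell antigen MS4A1 was at 0 in every high line and in every low line except TKKK (1.65 CPM).

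Of the remaining leukocyte lists, 0 of 2 tested B cell and plasma cell markers and 0 of 3 tested T and pan-leukocyte markers passed. BANK1, a B cell adaptor, was at 11.2 CPM in SNU-869, 9.88 in SNU-308 and 10.9 in HuH28, but at 0.0762 in OCUG-1 and 0 in HuCCT1, with a low maximum of 2.57 CPM. LCP1, the actin bundler L-plastin, was at 659 CPM in SNU-308 and 384 in HuH28 and at 3.20 to 7.64 CPM in the other high lines. Each of these genes was thus carried by part of the high class. The sums ran from 1.14 to 34.3 CPM (high) and 0.573 to 153 CPM (low) for the B cell list, and from 13.0 to 665 and 1.91 to 56.5 CPM for the T and pan-leukocyte list.

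**Figure D3:**
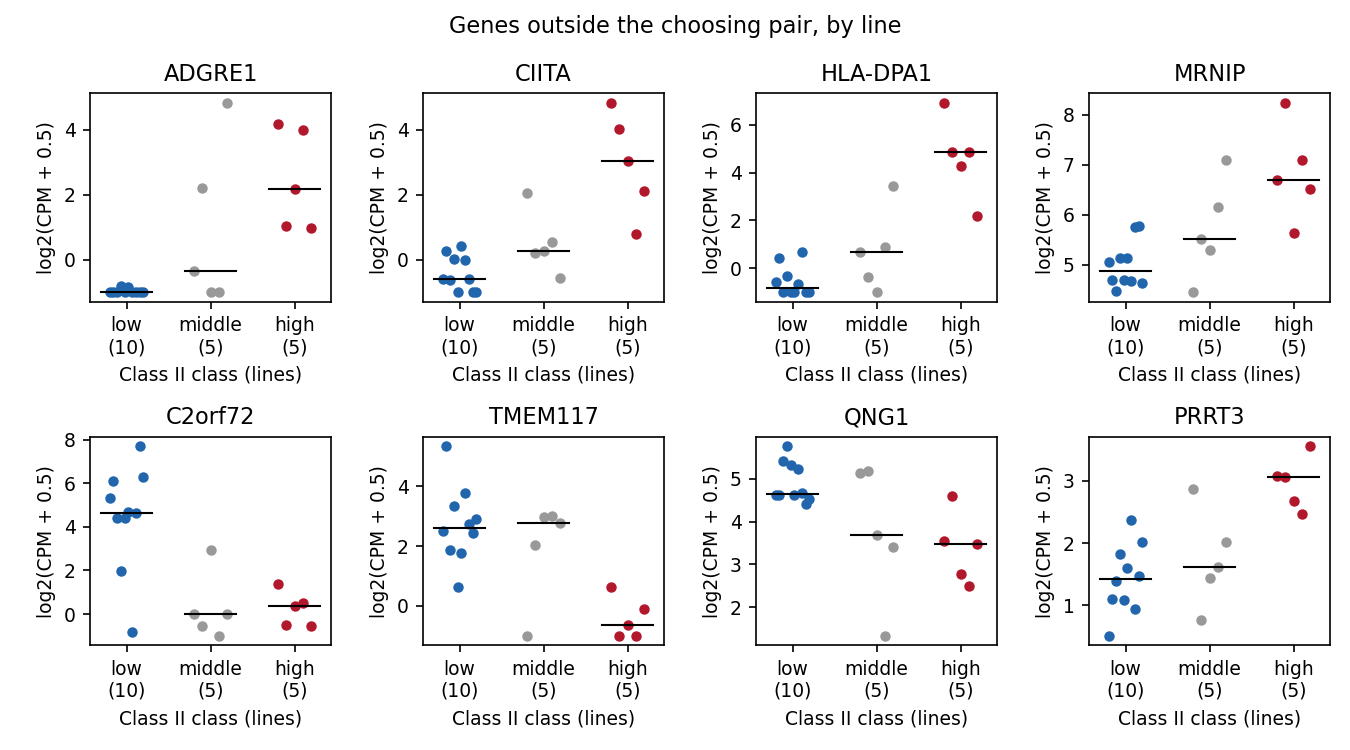
Log2(CPM + 0.5) of 8 genes in the low, middle and high lines, with 1 point per line and a bar at the median of each class. ADGRE1 lies at or near 0 CPM in the low lines and reaches its highest value, 27.7 CPM, in a middle line.

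The next genes by p did not pass. MRNIP, a partner of the MRE11 complex in DNA repair, was at 104 CPM in SNU-869, 302 in SNU-308, 49.0 in HuH28, 136 in OCUG-1 and 91.1 in HuCCT1, against 21.8 to 54.1 CPM in the low lines. Only HuH28 overlapped the low lines. The log2 difference of MRNIP was 2.05 (SE 0.33, edgeR adjusted p = 0.075), and without HuH28 it was 2.23 with an edgeR adjusted p of 0.0254. Fits that left out any other single line did not call MRNIP, so that value rests on removing the line that overlapped. MRNIP overlaps SQSTM1, an autophagy receptor gene, which was at 789 to 3073 CPM in the high and 306 to 1542 CPM in the low lines (log2 difference 1.29, SE 0.40, edgeR adjusted p = 0.795). Whether reads of the 2 genes were mixed was not tested.

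In 4 genes of 15021, 0.0266%, all 5 high lines lay above all 10 low lines: ADGRE1, HLA-DPA1, CIITA and PRRT3. How many genes separate completely under an arbitrary grouping of the lines was not tested. The counts of separated genes, in both directions, are therefore a description. ADGRE1 met the count filter only, and HLA-DPA1 and CIITA mainly, through the high lines. PRRT3, a proline-rich membrane protein singled out after its values were seen, was at 7.92, 7.80, 5.90, 5.03 and 11.2 CPM in the high lines and at 0.927 to 4.69 CPM in the low lines, a log2 difference of 1.69 (SE 0.42, edgeR adjusted p = 0.556). In 2 genes, 0.0133%, all high lines lay below all low lines, and these were also named after their values were seen. PAK4, a kinase of the actin cytoskeleton, was at 54.8, 74.0, 49.1, 68.4 and 55.7 CPM in the high lines and at 75.1 to 144 CPM in the low lines (log2 difference -0.77, SE 0.20, edgeR adjusted p = 0.575). The other was LOC440311, with 8.16 to 24.4 CPM in the high and 25.0 to 115 CPM in the low lines.

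The 3 genes of smallest p in the lower direction did not pass either. C2orf72, an uncharacterised gene, was at 0.174 to 2.08 CPM in the high lines and at 3.40 to 205 CPM in 9 low lines, but at 0.0700 CPM in the low line G415 (log2 difference -5.78, SE 1.35, edgeR adjusted p = 0.476). TMEM117, a membrane protein, was at 0 to 1.04 CPM in the high and 1.04 to 39.7 CPM in the low lines (log2 difference -4.77, SE 1.2, edgeR adjusted p = 0.556). It overlaps TWF1 on the genome, at 0 to 102 CPM in the high and 75.5 to 256 CPM in the low lines, and mixing of reads was not tested. QNG1, an enzyme that salvages queuine, was at 5.11 to 23.6 CPM in the high and 21.0 to 53.8 CPM in the low lines. TMEM117 stayed in the low-line range in 4 of 5 middle lines, at 3.63 to 7.53 CPM, and QNG1 was at 2.0 CPM in the middle line EGI-1.

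Interferon gamma, the usual inducer of CIITA in epithelium, was itself not analysed here. Its signalling genes were balanced: of 14 tested, 8 had positive and 6 negative differences, 0 passed, and the median log2 difference was 0.04 against -0.05 over all genes tested. IRF8 was at 0 in 4 high lines and 3.20 CPM in SNU-869, while it reached 168 CPM in the low line TKKK, 59.3 in Mz-ChA-2 and 61.7 in SNU-245. Among 16 tested interferon gamma targets, 11 differences were positive, 0 passed and the median was 0.63. ICAM1, an adhesion molecule, was at 2119 CPM in HuH28 but at 35.1 to 140 CPM in the other high lines, within the low-line range of 0.382 to 158 CPM. GBP1, an interferon-induced GTPase, was at 115 CPM in HuH28, 79.1 in HuCCT1, 34.3 in SNU-869, 14.9 in OCUG-1 and 1.07 in SNU-308, against at most 31.6 CPM in the low lines (log2 difference 2.22, SE 0.96, edgeR adjusted p = 0.828).

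A list score, the mean deviation of the target genes from their 20-line means in log2 units, placed HuCCT1 highest of all lines at 2.24. SNU-308, with the second highest class II level, was at -1.11, near the lowest line, NOZ, at -1.33. The Spearman rho between that score and the mean of HLA-DRA and CD74 was 0.28 over 20 lines, as a description. Among type I interferon targets 18 of 25 differences were negative, where 54.2% of all genes tested were, with a median of -0.39. Of these targets 0 passed, and 0 had an unadjusted edgeR p under 0.05. MX1, a member of the list, was at 926 CPM in HuCCT1 and 183 in SNU-869. It was at 4.57 CPM or below in the other high lines and at 0.21 to 933 CPM in the low lines. HERC5, a ligase of the antiviral modifier ISG15, was at 1.04 to 6.80 CPM in the high and 0.169 to 103 CPM in the low lines.

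No class I presentation gene passed the test. Of 21 tested genes 14 differences were positive and the median was 0.29. NLRC5, the class I counterpart of CIITA, was at 14.3 to 193 CPM in the high and 1.06 to 100.5 CPM in the low lines (log2 difference 1.05, SE 0.80, edgeR adjusted p = 0.916), and PSME1, a proteasome activator subunit, at 93.5 to 157 and 62.1 to 325 CPM. Of 12 lysosomal processing genes 7 were positive, 0 passed and the median was 0.20. LAMP1, a lysosomal membrane protein, was at 236 to 1583 CPM in the high and 157 to 494 CPM in the low lines, and CTSA, the protective protein cathepsin A, at 1219 CPM in HuH28 but 176 to 350 CPM in the other high lines.

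**Figure D4:**
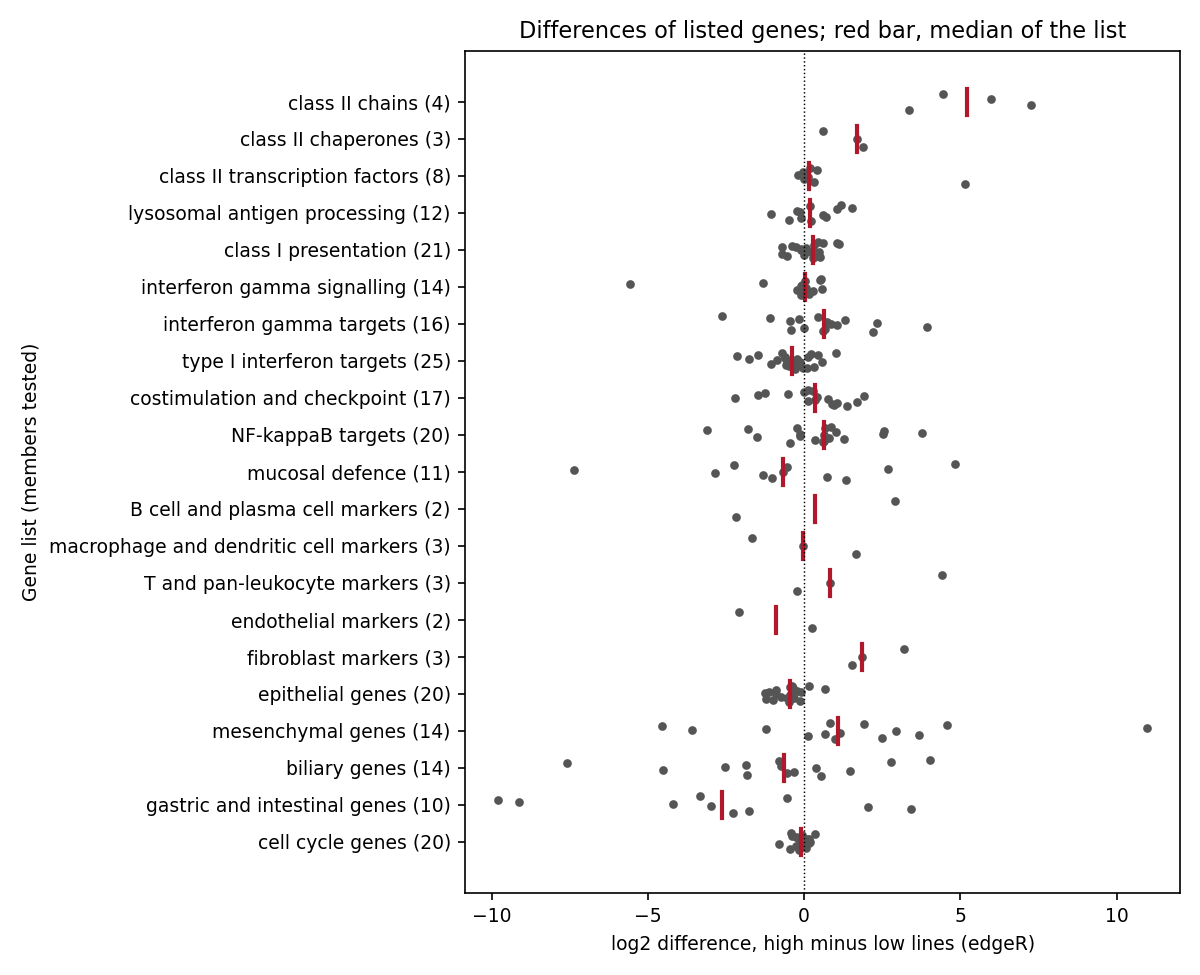
Log2 difference, high minus low lines (edgeR), of every tested member of the 21 gene lists, with a red bar at the median of each list and the number tested in parentheses. The class II chains have the highest median, 5.20, and 0 members of any list passed the test.

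Costimulatory and checkpoint genes (12 of 17 positive, median 0.35, 0 passed) and NF-kappaB targets (13 of 20 positive, median 0.62, 0 passed) were mixed. CXCL8, the neutrophil attractant interleukin 8, was at 26.1 CPM in SNU-869, 44.9 in SNU-308, 2.53 in HuH28, 365 in OCUG-1 and 53.7 in HuCCT1, against 1.05 to 21.7 CPM in the low lines (log2 difference 3.77, SE 0.87, edgeR adjusted p = 0.476). Only HuH28 overlapped the low lines. CD58, which binds CD2 on T cells, was at 21.4 to 60.1 CPM in the high and 8.01 to 36.8 CPM in the low lines (log2 difference 0.88, edgeR adjusted p = 0.828). NECTIN2, a ligand of the receptors TIGIT and DNAM-1, was at 57.8 to 163 and 109 to 958 CPM (log2 difference -1.25, edgeR adjusted p = 0.828).

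The high class held the most mesenchymal line of the series. HuH28 had an epithelial minus mesenchymal score of -9.21, OCUG-1 of -5.02, HuCCT1 of 0.52, SNU-308 of 2.45 and SNU-869 of 2.54, and the low lines ran from -4.55 to 4.67 with a median of 2.83. KRT18, a simple-epithelial keratin, was at 28.6 CPM in HuH28 and 606 to 1171 CPM in the other high lines. Of 20 epithelial genes 18 had negative differences, where 54.2% of all genes tested did, with a median of -0.45 and 0 passed. Of 14 mesenchymal genes 11 were positive, with a median of 1.07 and 0 passed. MMP2, a gelatinase, reached 3083 CPM in HuH28 and 1.91 CPM or less in the other high lines, so its log2 difference of 10.98 (edgeR adjusted p = 0.255) rests on that line. With the score as a covariate, the log2 difference of ADGRE1 was 8.52 (edgeR adjusted p = 0.00412). ADGRE1 was near 0 in every low line and met the count filter only through the high lines. That fit is therefore no test of the part of the score in the ADGRE1 result.

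Markers of the tissue of origin varied by line. Of 10 tested gastric and intestinal genes 8 were negative, 0 passed, and the median was -2.62. CDH17, an intestinal cadherin, did not exceed 1.04 CPM in the high lines and was at 1475 CPM in SNU-245, 499.7 in OZ, 433 in TKKK and 42.8 in Sk-ChA-1, but at 6.23 CPM or below in the other 6 low lines (log2 difference -9.80, SE 3.06, edgeR adjusted p = 0.795). LGALS4, an intestinal lectin, did not exceed 0.501 CPM in the high lines and was at 1199 CPM in SNU-245. Biliary genes (9 of 14 negative, median -0.66) and mucosal defence genes (7 of 11 negative, median -0.68) also gave 0 calls. CLDN10, a tight junction claudin, was at 0.0868 to 52.0 CPM in the high and 0 to 6.59 CPM in the low lines.

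Endothelial markers (1 of 2 tested positive), fibroblast markers (3 of 3 positive, median 1.87) and cell cycle genes (8 of 20 positive, median -0.11) gave 0 calls. ESAM, an endothelial junction protein, was at 0.0762 to 10.5 CPM in the high and 3.37 to 44.9 CPM in the low lines. The fibroblast sum ran from 24.3 CPM to 8354 CPM in the high and from 2.31 to 4229 CPM in the low lines, with the highest value in HuH28. AURKB, a mitotic kinase, was at 37.7 to 76.2 and 13.8 to 238 CPM.

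Over all 20 lines, the genes outside the class II lists whose levels ran most like the mean of HLA-DRA and CD74 were found among 13470 genes with a median of at least 1 CPM, by Spearman rho. They were TSPAN5 (0.708), GLIPR1 (0.702), MMP1 (0.695), PAPSS1, MAST1, TMEM138, ZNF827, FAS, CORO1A and DRC9 (0.630). TSPAN5, a tetraspanin, was at 67.0, 89.8, 51.8, 88.8 and 44.2 CPM in the high lines and 0.325 to 49.5 CPM in the low lines, with HuCCT1 the high line that overlapped. GLIPR1, a secreted CAP-family protein, was at 143, 81.0, 336, 141 and 133 CPM in the high and 13.1 to 130 CPM in the low lines (log2 difference 2.31, SE 0.54, edgeR adjusted p = 0.476). MMP1, an interstitial collagenase, was at 2.0, 55.9, 12.5, 4149 and 131 CPM in the high lines and 0 to 5.85 CPM in the low lines (log2 difference 9.40, SE 1.67, edgeR adjusted p = 0.137). By far the highest MMP1 value was in OCUG-1, and SNU-869 lay within the low-line range. Over the alternative settings, the slope excepted, that difference ran from 4.70 to 10.1. The lines behind these ranks are the ones compared above, so the ranks and the differences are the same data seen again.

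Origin, site and repository were compared between the classes. With 5 and 10 lines these tests can find only large imbalances, so a high p does not show that the classes were balanced. Of the high lines 3 were primary and 2 metastatic, and of the low lines 6 and 4 (two-sided Fisher's exact p = 1). By site 0 of 5 high and 4 of 10 low lines were extrahepatic, 2 and 3 came from the gallbladder, 2 and 2 were intrahepatic, 1 and 0 ampullary, and the labels put OZ at both bile duct sites (Fisher's exact p = 0.381). By repository 0 of 5 high and 3 of 10 low lines came from DSMZ or Zurich (Fisher's exact p = 0.55). Adjusted over the 3 tests the values were 1, 0.826 and 0.826.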

How the data were processed

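RNA was extracted from 20 cell lines and made into stranded poly(A) libraries, per the labels' protocols. The authors deposited whole-number counts per RefSeq entry, without normalization. TopHat2 2.0.8, Picard 1.69, Trimmomatic and featureCounts, with hg19 (GRCh37), are named in the submitters' processing notes. The strand setting of the counting is not given in the sources used here, nor is the annotation. Of 24222 RefSeq entries, 23512 were named from the GRCh38.p14 RefSeq table and 355 from GENCODE metadata. The 355 unnamed entries held 0.484% of counts and stayed in library sizes. An identifier of 335 entries ends in a copy number of unstated meaning, many HLA genes among them.

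CPM is a count over the line's total, unscaled. Differences come from quasi-likelihood F tests in edgeR 4.0.16 under R 4.3.3, two-sided, with TMM scaling, the filterByExpr filter, robust dispersion and Benjamini-Hochberg adjustment, on the 5 high and 10 low lines, without HLA-DRA and CD74 as tested genes, and the script was tested on simulated data. SE is the log2 difference over the root of F. Named genes are the class II lists, the 3 smallest p in each direction, up to 3 per other list and the 10 highest rho, of which some are given by counts only. The classes and lists were chosen with earlier results of these data known. Alternatives were RLE, DESeq2 1.42.0, limma-voom (limma 3.58.1), other filters, covariates, line sets and rankings. Nothing in the labels says that a line was sequenced more than once, so p-values measure the spread between lines. The labels name no sequencing batch.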

Additional observations from a re-analysis of the deposited data

Results flagged for a closer look

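In 146 sets of values (73 genes, each in the 5 high and the 10 low lines), a line was marked where its gap to the nearest other line, as a share of the range of log2(CPM + 0.5), exceeded Dixon's 95% value (0.71 for 5 lines, 0.466 for 10). That occurred in 21 sets. Chance marks about 1 in 20 only among independent, normally distributed values. Many values here lie near 0 and many genes were picked by their results, so the number of marks is a description.

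HuH28 stood apart among the high lines in 5 genes: it was high for MMP2 (3083 CPM) and TAGLN (1604 CPM), and low for KRT18 (28.6 CPM), KRT8 (78.2 CPM) and ONECUT1 (0 CPM). For ONECUT1 the other 4 high lines held a single count each, below the floor of 3 counts, so that mark separates 0 counts from 1 and shows no difference. SNU-869 was the only high line with counts of IRF8 (3.20 CPM). Among the low lines, TGBC14TKB stood apart in HLA-DQA1 (0.0756 CPM, a single count), HLA-DQB1 (13.6 CPM) and HLA-DQB2 (0.529 CPM). TKKK did so in HLA-DPB1 (1.22 CPM) and HLA-DOA (0.174 CPM, below the floor of 3 counts). OZ did so in HLA-DRB5 (4.05 CPM), and SNU-1079 in HLA-DMB (16.6 CPM) and MMP2 (2.53 CPM). Mz-ChA-2 was low in NLRC5 (1.06 CPM) and high in NECTIN2 (958 CPM) and ONECUT1 (129 CPM). Further marked low lines were TFK-1 for SAA1 (9.34 CPM), Sk-ChA-1 for DMBT1 (1952 CPM), SNU-245 for LGALS4 (1199 CPM) and G415 for KRT8 (100.2 CPM).

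In the middle lines, which the fit left out, TGBC2TKB lay above every low line for ADGRE1 (27.7 CPM), MRNIP (136 CPM) and HLA-DPA1 (10.4 CPM), and NOZ for CIITA (3.65 CPM). TGBC2TKB had 3.27 CPM of HLA-DRA and 19.9 CPM of CD74.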

How the results depend on the processing

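No paired analysis was possible because replicate numbers carry only the order of the accessions. The count of genes called higher was 1 with RLE, limma-voom, non-robust dispersion, origin or the epithelial minus mesenchymal score as covariate, and TMM-scaled ranking. It was 26 with DESeq2, 2 with no count filter, 4 with all lines in 3 groups, 3 with the 5 highest against 15 others, 3 with a slope over 20 lines and 5 without HuH28 and SNU-869. It was 0 with at least 10 counts in 10 lines (ADGRE1 then untested), with repository or site as covariate, in primary lines, against the 5 lowest lines and with ranking by HLA-DRA alone. Leaving out single lines gave 1 to 3. Genes called lower were 49 with DESeq2 and 0 under every other setting run. The ranking by HLA-DRA alone and the fit without 2 lines were chosen after seeing the data.

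ADGRE1 passed in all 15 fits that left out 1 line (edgeR adjusted p 0.00222 to 0.00832). It lay near 0 in every low line, so leaving out 1 line could change little, and these passes are no further support. ADGRE1 did not pass with ranking by HLA-DRA alone (log2 difference 4.22, edgeR adjusted p 0.98), against the 5 lowest lines (0.691) or as a slope (0.674). CIITA and HLA-DPB1 passed as a slope over 20 lines (edgeR adjusted p 0.0225 each) and with DESeq2 (2.96e-05 and 0.0029), and HLA-DPA1 passed with DESeq2 (2.27e-07). The slope was fitted on the mean of HLA-DRA and CD74, and these genes share their control with that pair. Their passes describe the classes and support nothing further. Of 55 genes whose difference was tracked, 7 changed sign under some setting, none of them called. Their main log2 differences were 2.54 for CXCL2, 3.40 for MUC6, 0.57 for STAT2, -1.87 for ANXA4, 1.53 for LAMP2, 1.05 for NLRC5 and 4.57 for TAGLN. Among primary lines the difference of CXCL2 was at -1.30 and MUC6 at -1.81. Ranked by HLA-DRA alone, STAT2 was at -0.10, ANXA4 at 0.0145 and MUC6 at -0.95. Without HuH28 and SNU-869, LAMP2 was at -0.076, NLRC5 at -0.53 and TAGLN at -0.16. Over fits that left out 1 line, LAMP2 ran from -0.0607 (without HuH28) to 1.78, TAGLN from -0.43 (without HuH28) to 5.21 and CXCL2 from -0.0428 (without OCUG-1) to 2.84. The causes were not tested. Of 30 further named genes given by levels or counts only, 15 changed sign under some setting. Depth limits genes below about 0.287 CPM, the floor of the shallowest line, as in most low lines for HLA-DPA1, HLA-DPB1 and HLA-DQA1.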
